A study of Mus musculus with 6 samples.

Results

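Immediate early response genes were examined in neutrophils lacking the microRNA miR-223 and in wild-type neutrophils, through 12 probe sets that stand for 10 genes. The genes are Fos, Fosb, Jun, Junb, Atf3, Egr1, Ier2, Dusp1, Zfp36 and Btg2. Jun and Btg2 have 2 probe sets each, and the other 8 genes have 1. The members were chosen by probe set identifier from the 45101 probe sets of the table, and the pairing of identifier with gene comes from that choice and not from the table. All 12 lay at or above the filter on low signal, which kept 27022 probe sets.

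The miR-223 null group had 3 arrays of neutrophils cultured from bone marrow of miR-223 null mice, and the wild-type group had 3 arrays of neutrophils cultured in the same way from wild-type bone marrow. Progenitors of both groups spent 6 days in SILAC-IMDM, an isotope-labelling medium, with G-CSF and SCF, a granulocyte growth factor and stem cell factor. They then spent 42 hours without SCF, and live neutrophils were picked with magnetic beads (MACS). The labels give no strain, sex or age, nor whether each replicate had its own mouse or culture. A p-value therefore reflects no more than the scatter among these arrays, and that scatter may be technical. Neutrophil markers were not analysed here because the table does not name genes, nor was the level of miR-223 itself.

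Immediate early genes are the first to be transcribed when a cell meets a growth factor, cytokine or stress, since the factors that switch them on are already present and need only be phosphorylated. Their mRNAs are short-lived, so their levels follow recent signalling through the MAP kinases. Fos and Jun proteins pair to form the factor AP-1, Egr1 is a zinc finger activator, and Dusp1, Zfp36 and Btg2 belong to the arm that shuts the response down. In neutrophils these genes respond to cytokines, adhesion and handling.

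The microRNA absent from the null cells is shown first, since it defines the comparison. It is encoded on the X chromosome, and its mature 3' arm lies at chrX:96242884-96242905 on the plus strand of GRCm38.p6 (sequence from RefSeq). The capitals mark the seed, bases 2 to 8, by which a microRNA recognises its targets.
mmu-miR-223-3p: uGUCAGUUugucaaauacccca

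Promoters are shown for 4 members that differed in how they behaved below. The difference between genotypes passed in the paired fit for Fos, Dusp1 and Zfp36, and not for Btg2. It also passed for Jun and Atf3, whose windows were searched but are not shown. RefSeq windows on GRCm38.p6 were found for 8 of the 10 genes, and each is the 250 bases before the gene start. The search covered both strands for the cAMP response element TGACGTCA, its core TGACG, the AP-1 site TGACTCA, the ETS core CCGGAA and the CArG box, which serum response factor binds. The full element reads the same on both strands and holds the core on each. Capitals mark every match.
Fos: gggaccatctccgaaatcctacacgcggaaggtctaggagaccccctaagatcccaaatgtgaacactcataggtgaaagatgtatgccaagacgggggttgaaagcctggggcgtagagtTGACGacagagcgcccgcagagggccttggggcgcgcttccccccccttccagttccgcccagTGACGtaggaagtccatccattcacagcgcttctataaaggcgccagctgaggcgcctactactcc
Dusp1: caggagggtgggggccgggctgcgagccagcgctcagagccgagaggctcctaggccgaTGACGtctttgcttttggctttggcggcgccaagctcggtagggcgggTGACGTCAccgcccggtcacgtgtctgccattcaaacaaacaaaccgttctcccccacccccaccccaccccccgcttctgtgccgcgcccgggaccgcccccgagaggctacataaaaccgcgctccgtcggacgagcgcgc
Btg2: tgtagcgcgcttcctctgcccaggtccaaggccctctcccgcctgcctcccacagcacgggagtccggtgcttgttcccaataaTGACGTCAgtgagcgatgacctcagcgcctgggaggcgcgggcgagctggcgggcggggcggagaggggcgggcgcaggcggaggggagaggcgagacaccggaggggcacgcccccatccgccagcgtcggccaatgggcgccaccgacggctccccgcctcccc
Zfp36: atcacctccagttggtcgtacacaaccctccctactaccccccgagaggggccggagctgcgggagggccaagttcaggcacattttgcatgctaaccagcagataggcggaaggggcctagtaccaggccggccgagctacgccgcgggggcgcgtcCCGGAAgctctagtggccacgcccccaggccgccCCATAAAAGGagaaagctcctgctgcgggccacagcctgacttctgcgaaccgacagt
The Fos window is chr12:85473640-85473889 on the plus strand. The others are on the minus strand, at chr17:26508473-26508722 for Dusp1, chr1:134079156-134079405 for Btg2 and chr7:28379229-28379478 for Zfp36. Dusp1 and Btg2 held the full cAMP response element, which 1.55% of 32851 promoter windows of this length hold. The core was in 6 of the 8 windows (Fos, Fosb, Junb, Atf3, Dusp1 and Btg2), against 17.8% of all windows. Zfp36 alone among the 8 held a CArG box (1.47% of all windows) and an ETS core (12%). The AP-1 site was in none of the 8 and in 4.46% of all windows. The Jun window held none of the motifs searched for. These are matches of letters and not measured binding sites. Sites outside the 250 bases, or with another spelling, were not searched for, so a motif missing here may lie elsewhere or be spelled otherwise.

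The 12 probe sets varied far more between arrays than most. Their range over the 6 arrays had a median of 1.47 log2 units, against 0.44 for all kept probe sets. Egr1 had a range of 3.36 log2 units, a 10.3-fold spread that was the 6th widest of 27022. Atf3 had the narrowest range of the members, at 1.10 log2 units, and it still exceeded that of 96.0% of kept probe sets. Null 3 was the highest of the 6 arrays for 10 of the 12, which held for 19.2% of all kept probe sets. Wild-type 1 was the lowest for 9 of the 12, against 15.3% of all.

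**Figure D1:**
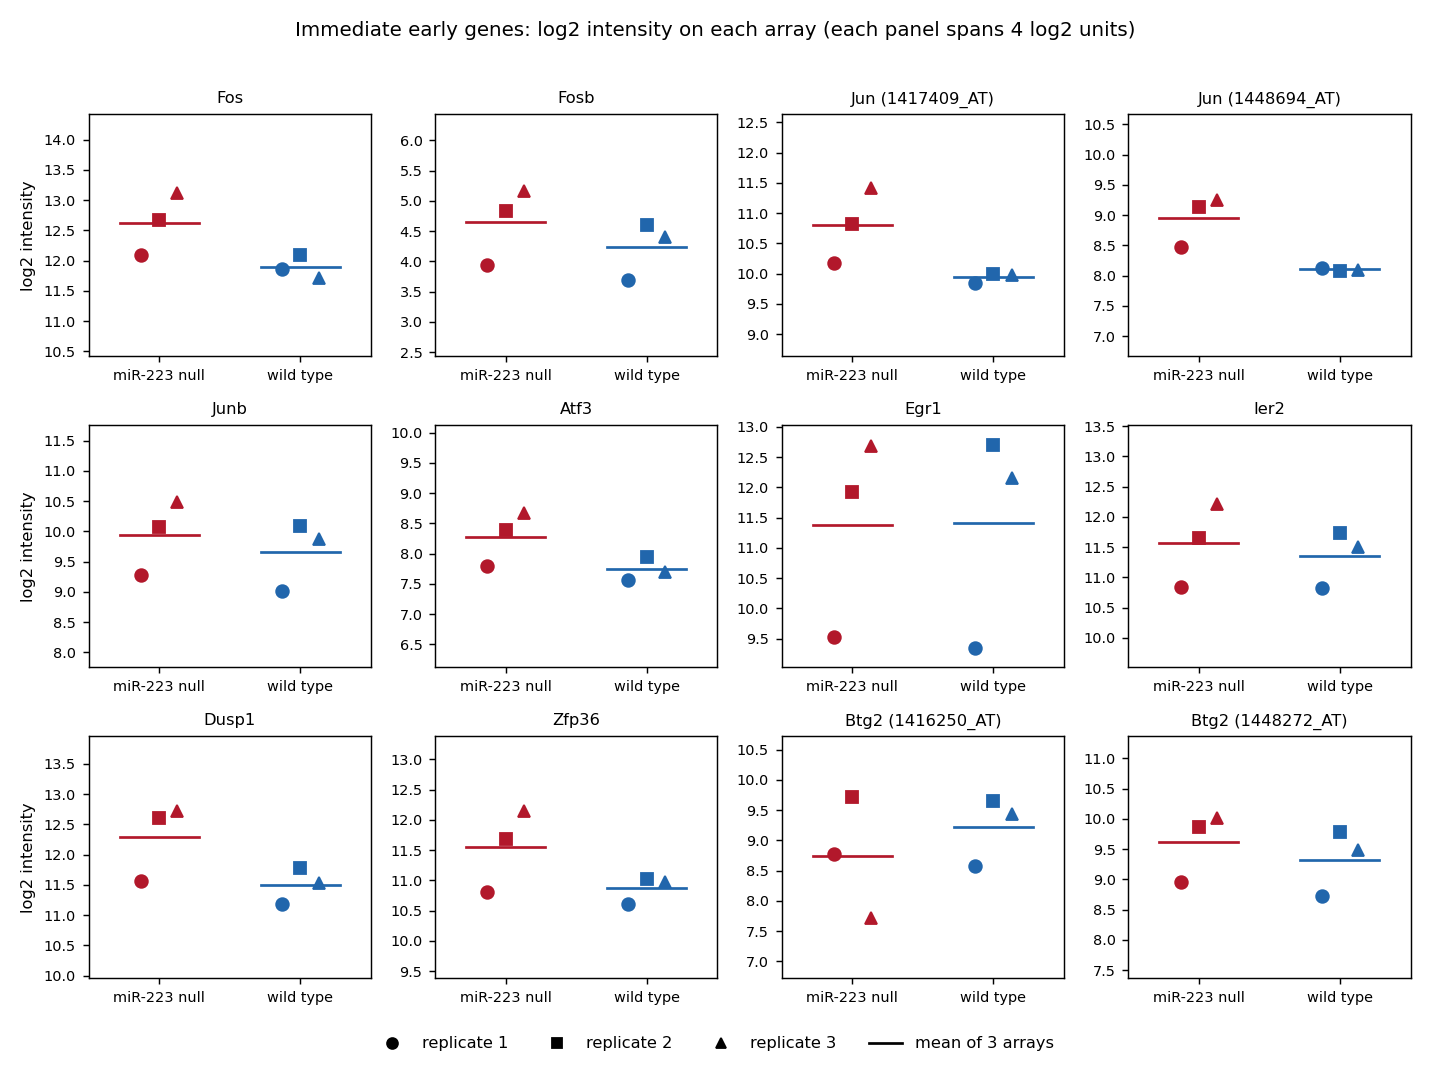
Log2 intensity of the 12 probe sets on each array, 1 panel per probe set, with miR-223 null arrays (red) left of wild-type arrays (blue), a marker shape per replicate number and a line at each mean of 3. The panels span the same number of log2 units. For Jun the null arrays all lie above the wild-type arrays, and for Egr1 both replicate 1 arrays lie far below the other 4.

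Between genotypes, Jun, Dusp1, Fos, Zfp36 and Atf3 read 1.46-fold to 1.82-fold higher in miR-223 null neutrophils, in 3 of 3 replicate pairs each. With all 6 arrays, these differences passed when arrays were paired by replicate number and not without pairing. Without pairing they also passed once both replicate 1 arrays were left out, where 1072 of 27022 kept probe sets did. Those arrays were already known to stand apart over the whole table, and null 1 was the lowest null array for each of these probe sets. Leaving it out raises their null means, so this refit is no separate support. Unpaired over all 6 arrays, 0 of the 12 probe sets passed (limma, Benjamini-Hochberg adjusted p under 0.05), where 0.189% of all kept probe sets did, 0.141% higher and 0.0481% lower in null. At an unadjusted limma p under 0.05, 5 of the 12 were higher in null, against 5.33% of all. With the replicate number as a block, 6 of the 12 were higher, against 4.96% of all kept probe sets, and 0 were lower, against 5.05%. Of the 12 probe sets, 8 were higher in null in 3 of 3 pairs, against 21.6% of all kept probe sets. The median difference of the 12 was 0.48 log2 units, against -0.01 over all. Since bulk RNA was measured, a change in the share of cells of a type and a change in RNA per cell cannot be told apart.

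Jun, the AP-1 subunit that can pair with itself or with Fos proteins, differed most. Its probe set 1417409_AT read 10.17, 10.83 and 11.42 in null arrays 1, 2 and 3, against 9.85, 9.99 and 9.98 in wild-type arrays 1, 2 and 3 (log2 intensity). The wild-type arrays lay close together, and all 3 null arrays lay above them. The log2 difference was 0.87, or 1.82-fold (SE 0.27, limma adjusted p = 0.323; with the block SE 0.17, limma adjusted p = 0.0236). The other Jun probe set, 1448694_AT, read 8.47, 9.13 and 9.25 in null arrays, against 8.12, 8.08 and 8.10 in wild-type arrays, again with no overlap. Its difference was 0.85, or 1.80-fold (SE 0.20, limma adjusted p = 0.19; with the block SE 0.14, limma adjusted p = 0.014). The 2 Jun probe sets were the only members whose genotypes did not overlap, with null above in both. That held for 8.12% of all kept probe sets, and null lay below without overlap for 0 of the 12 and for 8.68% of all.

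Fos, the partner of Jun in AP-1, read 12.09, 12.67 and 13.12 in null arrays 1, 2 and 3, against 11.86, 12.10 and 11.72 in wild-type arrays. Null 1 lay just under wild-type 2, and the other null arrays lay above all wild-type arrays. The log2 difference was 0.74, or 1.67-fold (SE 0.24, limma adjusted p = 0.332; with the block limma adjusted p = 0.0448). Fosb (1422134_AT), a close relative of Fos, was the dimmest member, and its mean over all arrays exceeded that of 46.1% of probe sets. Fosb read 3.94, 4.84 and 5.17 in null arrays, against 3.69, 4.60 and 4.40 in wild-type arrays, a difference of 0.42 (SE 0.34, limma adjusted p = 0.746; with the block limma adjusted p = 0.0953). It was higher in null in every pair, yet the groups overlapped and neither fit passed.

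Junb (1415899_AT), a Jun relative that often restrains Jun activity, overlapped between genotypes. It read 9.27, 10.08 and 10.48 in null arrays, against 9.02, 10.08 and 9.87 in wild-type arrays, a difference of 0.29 (SE 0.36, limma adjusted p = 0.851; with the block limma adjusted p = 0.133). Atf3 (1449363_AT), a stress-induced factor of the ATF/CREB family, read 7.79, 8.38 and 8.67 in null arrays, against 7.57, 7.95 and 7.69 in wild-type arrays. Null 1 fell inside the wild-type range, and null 2 and null 3 lay above it. The Atf3 difference was 0.54, or 1.46-fold (SE 0.23, limma adjusted p = 0.453; with the block limma adjusted p = 0.0446).

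Of the genes that end the response, Dusp1, Zfp36 and 1448272_AT of Btg2 were higher in null in every pair, and Dusp1 and Zfp36 passed with the block. Dusp1 (1448830_AT), a phosphatase that inactivates MAP kinases, read 11.57, 12.60 and 12.73 in null arrays, against 11.19, 11.78 and 11.53 in wild-type arrays. Its difference was 0.80, or 1.75-fold (SE 0.30, limma adjusted p = 0.398; with the block limma adjusted p = 0.0114). Zfp36 (1452519_A_AT), or tristetraprolin, which marks AU-rich mRNAs for decay, read 10.81, 11.69 and 12.15 in null arrays, against 10.61, 11.02 and 10.97 in wild-type arrays. The Zfp36 difference was 0.68, or 1.61-fold (SE 0.31, limma adjusted p = 0.49; with the block limma adjusted p = 0.0334). For both genes null 1 lay within the wild-type range and null 2 and null 3 above it.

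Egr1 and Ier2 did not pass in either fit. Egr1 (1417065_AT) read 9.52, 11.92 and 12.68 in null arrays, against 9.35, 12.70 and 12.15 in wild-type arrays, a difference of -0.03 (SE 1.03, limma adjusted p = 0.996; with the block SE 0.21, limma adjusted p = 0.952). Its pairs disagreed in direction, with null minus wild-type differences of 0.17, -0.79 and 0.52 log2 units in replicates 1, 2 and 3. Ier2 (1416442_AT), a small nuclear protein induced by growth factors, read 10.84, 11.65 and 12.21 in null arrays, against 10.82, 11.74 and 11.51 in wild-type arrays. The Ier2 difference was 0.21 (SE 0.36, limma adjusted p = 0.9; with the block limma adjusted p = 0.379), and the groups overlapped over most of their range.

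Btg2, an antiproliferative protein that recruits the enzymes that shorten mRNA tails, gave different readings from its 2 probe sets. Probe set 1448272_AT read 8.96, 9.86 and 10.01 in null arrays, against 8.72, 9.78 and 9.48 in wild-type arrays, a difference of 0.28 (SE 0.34, limma adjusted p = 0.843; with the block limma adjusted p = 0.0816). Probe set 1416250_AT read 8.77, 9.72 and 7.72 in null arrays, against 8.57, 9.65 and 9.44 in wild-type arrays, a difference of -0.48 (SE 0.49, limma adjusted p = 0.807; with the block limma adjusted p = 0.411). The disagreement sat in 1 array. Probe set 1416250_AT minus 1448272_AT was -2.29 log2 units in null 3 and between -0.18 and -0.04 in the other 5 arrays. Without null 3 the difference of 1416250_AT was 0.030 log2 units.

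**Figure D2:**
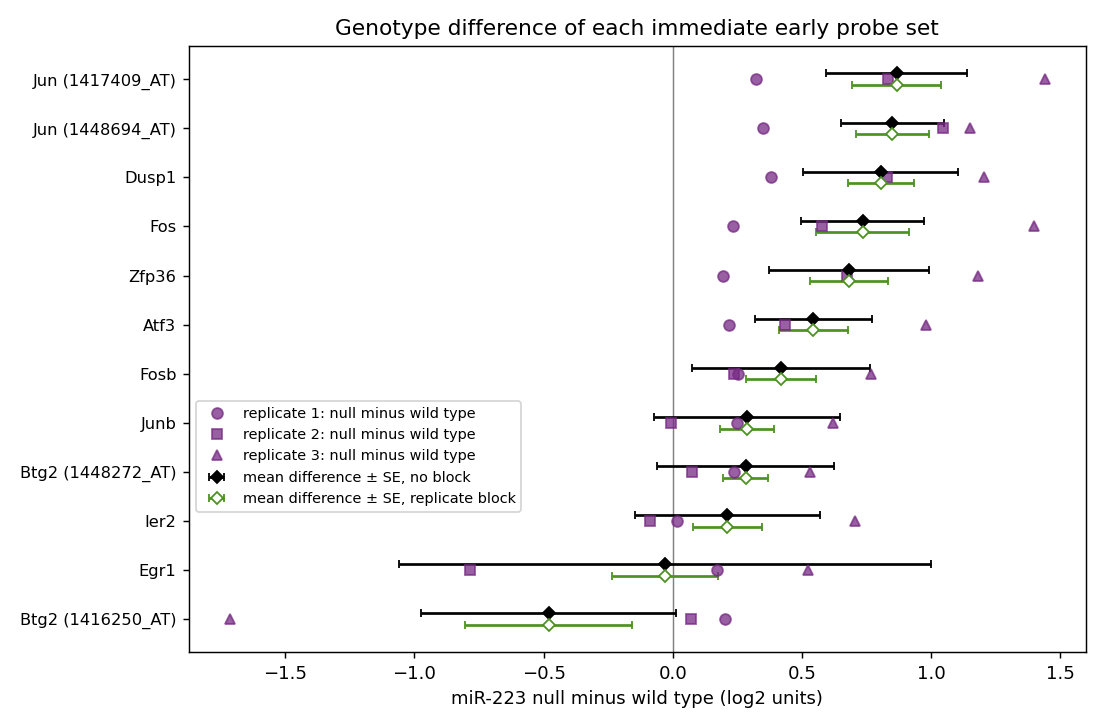
Null minus wild-type difference of each probe set in log2 units, ordered by size, with the mean and its standard error without the block (black) and with it (green), and the difference within each replicate pair (purple). Replicate 3 has the most positive difference for 11 of the 12 probe sets. For 1416250_AT of Btg2 it has the most negative, at -1.71.

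The difference was uneven across pairs. With sign, it was highest in the replicate 3 pair for 11 of the 12 probe sets, as it was for 36.4% of all kept probe sets. Nothing but the replicate number matches the arrays. Deviations of null 3 from its group mean correlated with those of wild-type 2 (r = 0.41) and of wild-type 3 (r = 0.48). The split between pairs 2 and 3 therefore rests on the numbering. For Fos, the differences in pairs 1, 2 and 3 were 0.23, 0.58 and 1.40 log2 units. For Dusp1 they were 0.38, 0.83 and 1.21, and for 1417409_AT of Jun 0.32, 0.84 and 1.44. For 1448694_AT of Jun they were 0.35, 1.05 and 1.15, with pairs 2 and 3 close together. Both fits average pairs that run from a 1.18-fold to a 2.63-fold difference for Fos. The blocked calls also depend on the arrays used. Without the replicate 2 pair, Dusp1 alone of the 12 passed (limma adjusted p = 0.04), where 606 of all 27022 kept probe sets did. The differences of the other 5 were then 0.60 to 0.88 log2 units. Without the intensity trend in the variance, 0 of the 12 passed with the block in limma, where 8 had an unadjusted p under 0.05, against 23% of all kept probe sets. Without the replicate 3 pair Atf3 no longer passed (limma adjusted p = 0.059) and the other 5 did, among 2319 of all kept probe sets. The differences were then smaller, at 0.40 for Fos, 0.33 for Atf3, 0.43 for Zfp36, 0.58 for 1417409_AT of Jun, 0.70 for 1448694_AT of Jun and 0.60 for Dusp1. Leaving out null 3 alone gave 0.49 for Fos, 0.35 for Atf3, 0.38 for Zfp36 and 0.56 for 1417409_AT of Jun. It gave 0.70 for 1448694_AT of Jun and 0.59 for Dusp1. Without the replicate 1 pair all 6 passed, among 2045 of all kept probe sets.

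Across replicate numbers, Egr1, Junb, Ier2, Fosb, Zfp36 and 1448272_AT of Btg2 read lower in both replicate 1 arrays than in any of the other 4. The replicate 1 arrays were already known to stand apart over the whole table, so their values are given here as a description with no test. Egr1 was furthest from the rest. In replicate 1 its signal was 14.6% of the mean of replicates 2 and 3 in null cells and 11.8% in wild-type cells, log2 differences of -2.78 and -3.08. The mean of these, -2.93, was the lowest of all 27022 kept probe sets, and the next lowest was -2.29. The lower replicate 1 reading of Egr1 was thus present in both genotypes at a similar size, while the genotypes overlapped.

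Junb read 49.6% of the other replicates in null 1 and 51.6% in wild-type 1. Ier2 read 46.9% in null 1 and 57.4% in wild-type 1, and Fosb 47.9% and 57.1%. Probe set 1448272_AT of Btg2 read 50.8% in null 1 and 53.3% in wild-type 1. Both replicate 1 arrays lay below the other 4 for 6 of the 12 probe sets, Zfp36 included, which held for 20% of all kept probe sets. Both lay above the other 4 for 0 of the 12 and for 19.6% of all.

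Fos and Jun behaved otherwise, since the lower reading was found in null 1 and hardly in wild-type 1. Fos read 57.1% of the other null replicates in null 1, and in wild-type 1 it read 96.3% of the other wild-type replicates. Probe set 1417409_AT of Jun read 51.8% in null 1 and 91.0% in wild-type 1, and 1448694_AT read 60.9% and 102%. Atf3 (60% in null 1 and 84.1% in wild-type 1), Dusp1 (46.7% and 72.5%) and Zfp36 (46.1% and 76.7%) lay between these patterns. Whether the replicate 1 difference itself differs between genotypes was not tested. Over the 12 probe sets, the median difference of replicate 1 was -0.99 log2 units in null and -0.63 in wild-type cells, against 0.01 in both over all kept probe sets.

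**Figure D3:**
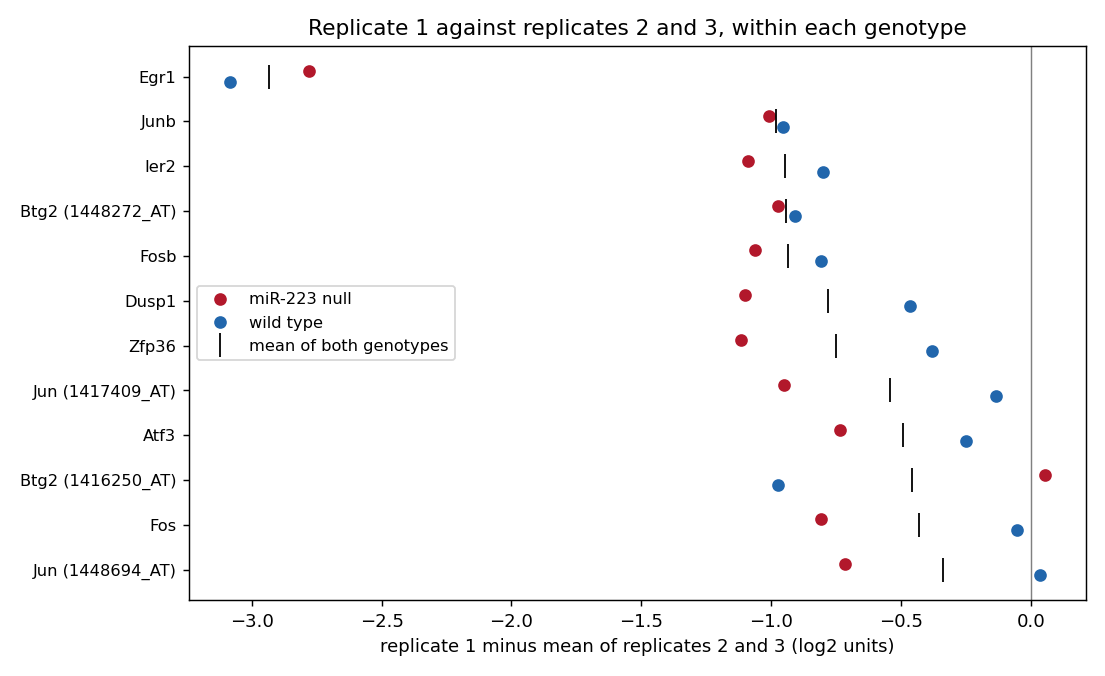
Replicate 1 minus the mean of replicates 2 and 3, in log2 units, within miR-223 null (red) and wild type (blue), with a tick at the mean of both. Egr1 lies near -3 in both genotypes, Junb, Ier2, Fosb and 1 Btg2 probe set near -1 in both, and Fos and Jun near 0 in wild type only.

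An F-test of the replicate number, with genotype in the fit, asked whether arrays of the same number moved together. It names no number but uses the same replicate 1 values, which were already known to stand apart. Its p-values are therefore no independent support for the replicate 1 description above. The replicate term passed for 7 of the 12 probe sets (limma F-test, adjusted p under 0.05), against 23% of all kept probe sets. They were Egr1 (limma adjusted p = 0.0019), 1448272_AT of Btg2 (0.00271), Junb (0.00395), Ier2 (0.00842), Fosb (0.00942), Dusp1 (0.0143) and Zfp36 (0.0289). The term did not pass for Atf3 (limma adjusted p = 0.0903), Fos (0.292), the 2 Jun probe sets (0.109 and 0.282) and 1416250_AT of Btg2 (0.129). Of the 12, Dusp1 and Zfp36 passed both this test and the blocked genotype test, as did 3.77% of all kept probe sets. With both replicate 1 arrays left out, replicate 2 against replicate 3 passed for 0 of the 12 (limma, 2 at an unadjusted p under 0.05, against 7.83% of all) and for 1 probe set in the whole table. This count also depends on single arrays, as it was 3 without null 1 and 11 without wild-type 1 or without wild-type 3. In those fits, in that order, 2031, 3862 and 7557 of all 27022 kept probe sets passed.

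Control signals moved with replicate number as well. The mean of the poly-A spike-in probe sets was 8.92 (null 1) and 8.77 (wild-type 1), and the remaining arrays spanned 8.16 to 8.58. The 3' minus 5' difference of beta-actin, a measure of RNA integrity, was 0.28 and 0.26 log2 units on the replicate 1 arrays, against 0.15 to 0.21 on the others. The same difference for Gapdh ran the other way: null 1 had -0.11 and wild-type 1 had -0.09, while the remaining 4 arrays lay between -0.06 and 0.07. Actin itself, by its 3' probe set, read 14.58 and 14.61 against 14.65 to 14.70. The B1 repeat control read 11.33 (null 1) and 11.17 (wild-type 1), against 10.38 to 10.65 on the others. The hybridization spike-in probe sets had means of 9.99 and 9.89, against 9.69 to 9.79. The part of these differences in the immediate early results was not tested. The genotype difference of Fos, Jun, Atf3, Dusp1 and Zfp36 was larger without both replicate 1 arrays, at 0.71 to 1.14 log2 units. All 6 of their probe sets then passed without a block (limma adjusted p = 0.00201 to 0.0286). So did 1072 of all 27022 kept probe sets, against 51 with all arrays, and that fit had fewer arrays per genotype. Null 1 was the lowest null array for all 6, so leaving it out raised their null means. For Egr1 the difference without replicate 1 was -0.13 log2 units (limma adjusted p = 0.815).

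**Figure D4:**
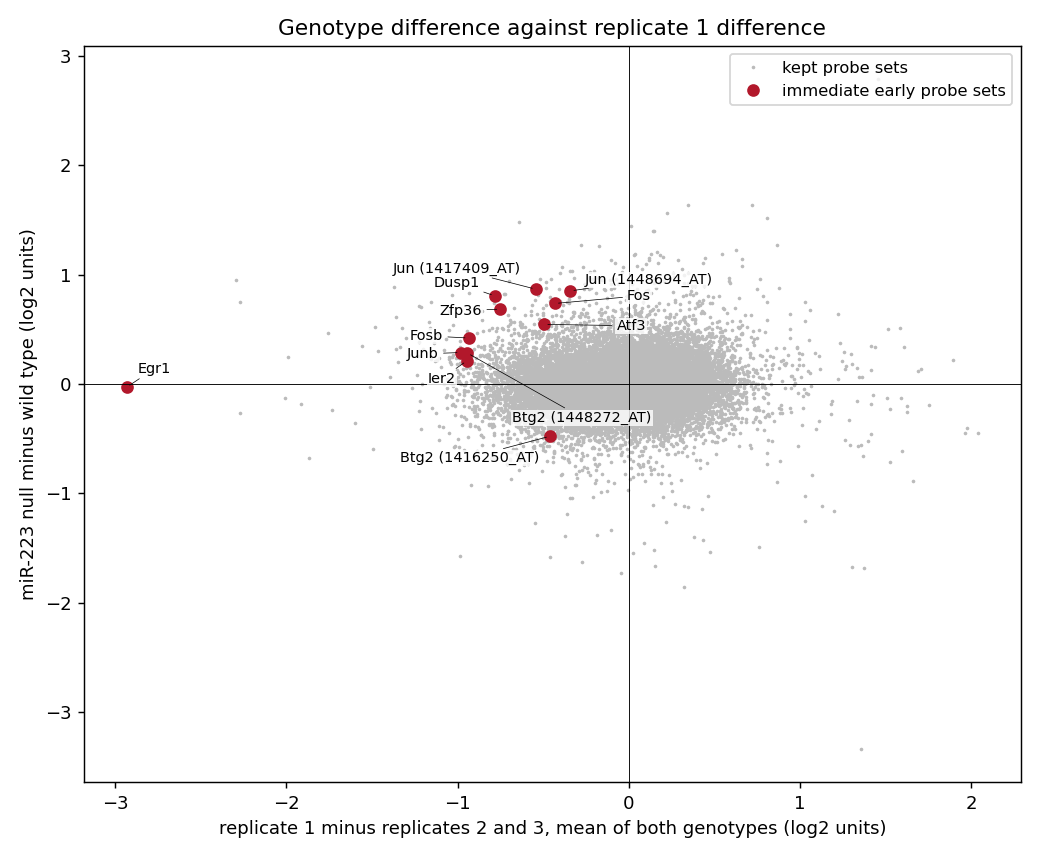
Null minus wild-type difference (vertical, log2 units) against the replicate 1 difference (horizontal, log2 units, mean of both genotypes) for the 27022 kept probe sets (grey) and the 12 members (red). Egr1 lies at the far left at a genotype difference of -0.03, while Jun, Dusp1, Fos and Zfp36 lie above 0.6 on the vertical axis.

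Profiles over the 6 arrays differed among the members. With Fos, Pearson's r over the 6 arrays was 0.978 for Atf3, 0.975 for 1417409_AT of Jun, 0.94 for 1448694_AT of Jun, Dusp1 and Zfp36, and 0.45 for Egr1. With Egr1 it was 0.95 for Junb, 0.94 for Ier2 and 1448272_AT of Btg2, and 0.89 for Fosb. Probe set 1416250_AT of Btg2 had r = -0.45 with Fos. These values describe 6 arrays that share 3 replicate numbers. Outside the set, among 1542 probe sets with a range of at least 1 log2 unit, the 5 most like Fos had r from 0.987 to 0.996, led by 1417694_AT and 1418402_AT, which the table does not name. Probe set 1417694_AT read 6.33, 7.10 and 7.62 in null arrays, against 6.18, 6.38 and 5.85 in wild-type arrays, with null 3 highest and wild-type 3 lowest, as for Fos.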

How the data were processed

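Messenger RNA was measured on 6 Affymetrix-labelled arrays, 3 per genotype, and groups and replicate numbers were read from the sample titles. The deposited table holds log2 intensity values, a unit read from their range. The array medians lay close together, at 4.71 to 4.73. The submitters' processing notes list GCOS, and the background correction, normalization and probe summary are not given in the sources used here. The number of arrays limits the precision.

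The 64 control probe sets were set aside, and the filter kept those whose mean reached the 40th percentile (4.08). Differences are null minus wild type, tested with limma 3.58.1 in R 4.3.3 (eBayes with intensity trend), two-sided, Benjamini-Hochberg adjusted over all 27022 kept probe sets. The replicate term was an F-test beside genotype. The code was first tested on simulated arrays with known changes. Same-numbered arrays had correlated deviations from their group means (r = 0.70, 0.30 and 0.48 for numbers 1, 2 and 3), so replicate numbers were treated as pairing arrays, with blocked values printed beside unblocked ones. Null 3 with wild-type 2 reached 0.41, so the pairing of 2 and 3 comes from this rule alone. The members, lists and the contrast of replicate 1 were chosen with earlier results of these data known. Named probe sets are the 12 members and those most like Fos (1423100_AT) by Pearson's r, of which 2 of 5 are given. Alternatives changed the filter, normalization, variance trend, pairing and arrays. Lists of other pathway genes and of cell type markers were fixed but not run, because the table does not pair probe sets with genes.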

Additional observations from a re-analysis of the deposited data

Results flagged for a closer look

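For probe set 1448694_AT of Jun the replicate 1 difference had opposite signs in the 2 genotypes, with little movement in wild type. Null 1 lay below null 2 and null 3, by 0.72 log2 units on average, while wild-type 1 lay 0.03 log2 units above the mean of wild-type 2 and wild-type 3 and above each of them. The replicate 1 difference in null minus that in wild type was -0.75 log2 units. The other Jun probe set, 1417409_AT, was lower in replicate 1 in both genotypes, with differences of -0.95 in null and -0.14 in wild type. Whether the replicate 1 difference itself differs between genotypes was not tested, and the wild-type side is small.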

How the results depend on the processing

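Over all settings run, the differences of Fos, both Jun probe sets, Atf3, Dusp1, Zfp36 and Fosb kept their direction, and none passed in the unpaired fit under another filter, normalization or variance model. Fosb lies below the 60th percentile filter and has no value there. The count of calls among the 12 was 0 in the unpaired fit and 6 with the replicate block. It was 6 with replicate 1 or not as the block (chosen after seeing the data). With both replicate 1 arrays left out, which were already known to stand apart, it was 6. Over all probe sets the counts were 51, 2703, 2417 and 1072. The replicate block without the intensity trend called 191 probe sets and 0 of the 12 (limma, 8 at an unadjusted p under 0.05, against 23% of all). Leaving out 1 array gave 0 to 58 calls in all and 0 to 1 among the 12. With the block, leaving out the pair of replicate 1, 2 or 3 gave 2045, 606 and 2319 in all and 6, 1 and 5 among the 12. The replicate term called 6221 probe sets and 7 members. Without the trend these were 1586 and 4, with replicate 2 against 3 alone 1 and 0, and leaving out 1 array (chosen after seeing the data) 2031 to 7557 and 3 to 11. The median replicate 1 difference of the members lay between -0.63 and -0.99.

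Reversals were found only in members that passed under no genotype setting. Leaving out 1 array gave differences from -1.06 to 0.90 for Egr1, with 0.62 without wild-type 2 and 0.35 without wild-type 3, and the block without replicate 2 gave 0.35. Ier2 ran from -0.11 (without null 3) to 0.57, with -0.056 without wild-type 1 and -0.036 with the block without replicate 3. Junb ran from -0.031 to 0.62 and 1448272_AT of Btg2 from -0.021 to 0.61, both below 0 without wild-type 1. Probe set 1416250_AT of Btg2 ran from -0.97 to 0.030, which was its value without null 3, and read 0.14 with the block without replicate 3. The cause was not tested. Fosb is the dimmest member, and whether its signal limits its call was not tested.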
